A study of Mus musculus with 2 samples.

Results

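The classical protein tyrosine phosphatases were examined as 1 gene family in MIN6 cells, a mouse insulinoma line that keeps many properties of pancreatic β cells. A probe was taken as a member where its RefSeq accession belongs to a gene whose symbol is Ptpn followed by a number, or Ptpr followed by a letter and at most a single digit. This rule uses names only and found 55 probes of 37 genes, among 27224 named probes of 20653 genes and 39417 probes in all. Of the 38 symbols of this form in the RefSeq table, Ptprv was the one without a probe. The cells, at passages 15 to 20, had been transduced with lentivirus made from pLVX-IRES-ZsGreen carrying mouse FTO, an RNA demethylase, or from the empty pLVX-IRES-ZsGreen vector, so both cultures express the green reporter. The title of the first sample names FTO and its treatment label spells it FTP. Each condition had 1 array, hence no difference below has a replicate check and none was tested, and a difference between the cultures other than FTO cannot be told apart from one made by FTO.

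Protein tyrosine phosphatases remove phosphate groups from tyrosine residues and so oppose receptor and cytosolic tyrosine kinases. The receptor type crosses the plasma membrane or a vesicle membrane and is named Ptpr, and most members of the cytosolic type are named Ptpn. In β cells the family is known for Ptpn1 and Ptpn2, which act on the insulin receptor and on cytokine signaling through JAK kinases. It is also known for Ptprn and Ptprn2, proteins of the insulin granule membrane that do not have ordinary phosphatase activity and are targets of autoantibodies in type 1 diabetes.

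On the arrays 32329 probes (82.0%) were well above background on the FTO-labelled array and 33444 (84.8%) on the control-labelled array, by the flag of the scanner software. Signal here means the background-subtracted intensity of a spot before normalization, and difference means the quantile normalized log2 signal of the FTO-labelled array minus that of the control-labelled array. The spot error joins the errors that the software's error model gives for the pair of spots and does not include variation between cultures. Fto itself had signals of 7301 on the FTO-labelled array and 5179 on the control-labelled array, with a difference of 0.06 and a spot error of 0.20. Its difference did not exceed its spot error, so directions below rest on the labels alone. The study reports FTO overexpression at the protein level by Western blot in transduced MIN6 cells. Whether the Fto probe lies within the cDNA carried by the vector could not be examined. All 10 β cell markers examined, among them Ins1, Ins2 and Pdx1, were well above background on both arrays.

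For Ptpre the study had designed a primer pair for quantitative PCR, shown here because these are oligonucleotides made for a member of the family. They have 19 and 20 bases and are written 5′ to 3′, the forward primer first.
mPtpre-F: ctgggagcaaaggtcagcc
mPtpre-R: taatccaccaggaccacgca

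Most of the family gave a signal in MIN6 cells. Of the 55 probes, 52 were well above background on both arrays and 1, the probe of Ptprh, on the control-labelled array only. The probes that were not well above background on either array were the pair for Ptprq, a receptor of the inner ear, with signals of 13.1 and 3.01 on the FTO-labelled array and 11.5 and 3.59 on the control-labelled array. This left 36 genes with 53 probes for the comparison. Signals of the members ran from 3.01 to 99477 on the FTO-labelled array and from 3.59 to 65246 on the control-labelled array. Before normalization 46 of the 53 probes (86.8%) were brighter on the FTO-labelled array, as were 86.9% of all tested named probes, and the median ratio was 1.30 for the family and 1.29 for all. The 7 exceptions were both probes of Ptpn7, the probes of Ptprc, Ptpre and Ptpro, 1 of 2 probes of Ptpru and 1 of 4 probes of Ptprj.

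**Figure D1:**
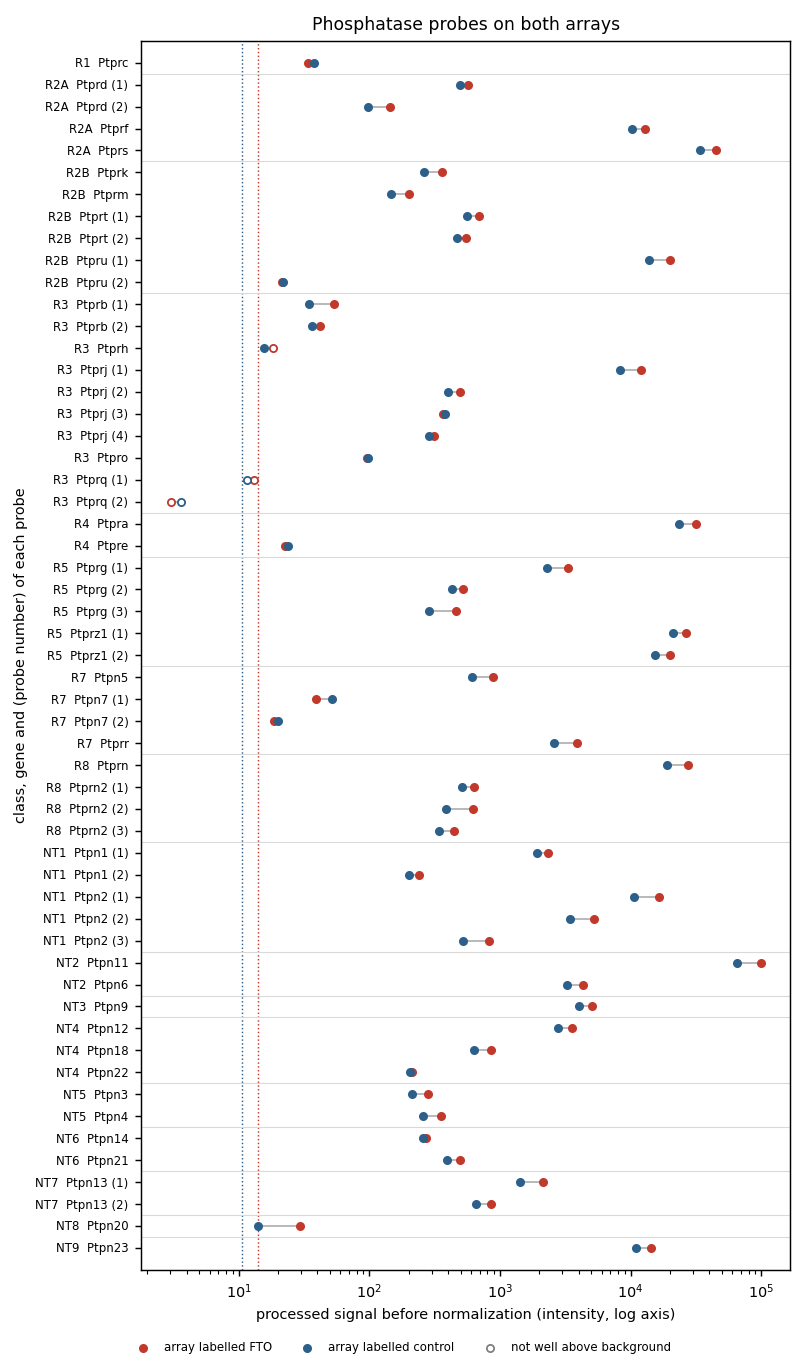
Signal before normalization (log axis, intensity) of each of the 55 phosphatase probes on the FTO-labelled array (red) and the control-labelled array (blue), with open circles where a spot was not well above background and dotted lines at 14.0 and 10.7, the dimmest signals that were well above background. Codes give the structural class, R for classes of mostly receptor type and NT for classes without a transmembrane part, and numbers in brackets count the probes of a gene from the brightest. Most pairs lie slightly apart with the FTO-labelled array to the right, and those of Ptpre, Ptprc, Ptpn7 and Ptpro lie the other way.

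The differences of the family were small. With the brightest tested probe of each gene, the 36 genes had a median difference of -0.011, beside 0.0064 over all 18507 named genes tested. The quartiles of the family lay at -0.10 and 0.15, and those of all genes at -0.12 and 0.13. Differences above 0 were found for 17 of 36 members (47.2%) and for 51.6% of all genes. One member, Ptpn20, differed by more than 2-fold (2.78% of those tested), beside 3.21% of all named genes by the same rule. The differences of 30 members were smaller than their spot error, as were those of 13218 of the 18507 named genes. Larger than the spot error and higher on the FTO-labelled array were 3 members (8.33%), Ptpn20, Ptprb and Ptpn11, beside 14.7% of all genes. Larger and lower were 3 members, Ptpn7, Ptprc and Ptpro, beside 13.9% of all genes. By these rules for 2-fold and for spot error the share in the family was below that among all genes. Each share rests on 3 members or fewer, so it is not read as setting the family apart. The spread between repeated spots, a second measure of error that rises toward dim signals, was larger than the difference for Ptprc (0.38) and Ptpro (0.24), and smaller for the other 4 genes. Over the tested member probes its median was 0.09, below the lowest spot error of the 36 genes, 0.20. Some members within their spot error thus lay beyond this spread, such as Ptpn13 (0.20 against 0.08) and Ptprr (0.19 against 0.08). Others, such as Ptprs (-0.02 against 0.09), lay inside it. Neither measure includes variation between cultures.

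**Figure D2:**
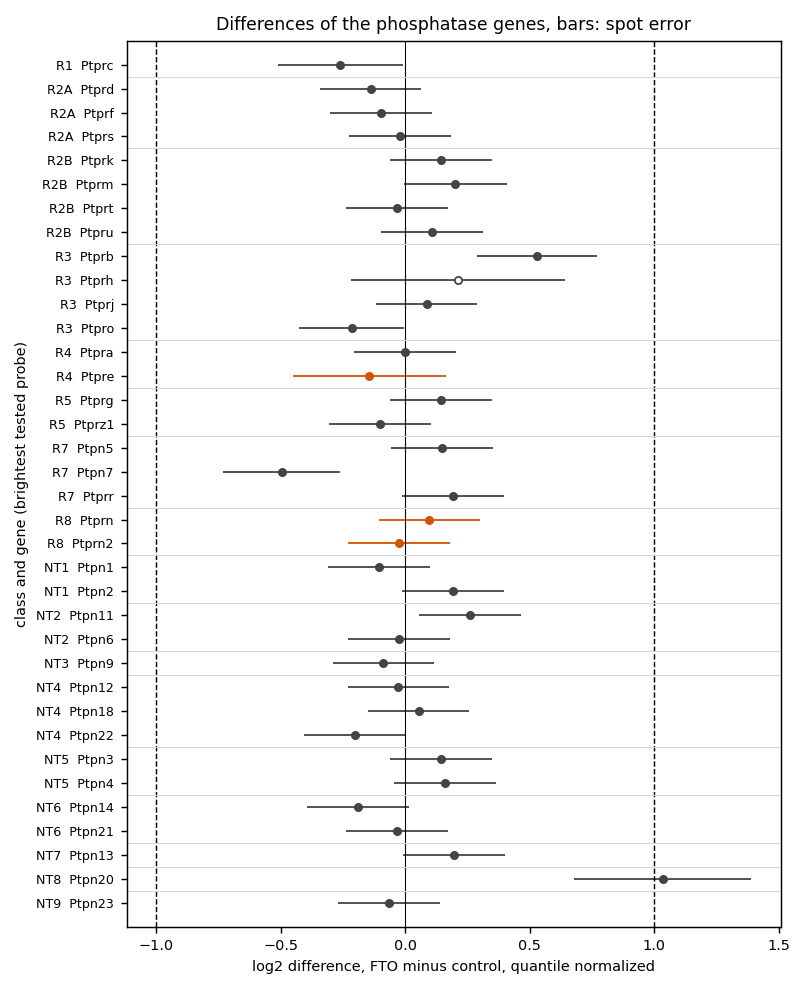
Difference (log2, FTO minus control, quantile normalized) of the 36 phosphatase genes by their brightest tested probe, ordered by structural class, with bars for the spot error and dashed lines at 2-fold. Orange marks Ptpre, Ptprn and Ptprn2, and the open circle is Ptprh, which was not well above background on the FTO-labelled array. Most bars cross 0 and only the point of Ptpn20 lies beyond a dashed line.

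Ptprn (NM_008985) encodes the granule protein also called IA-2 and had a single probe. Its signal was 27417 on the FTO-labelled array and 18869 on the control-labelled array, well above background on both. The difference was 0.10 (spot error 0.20), a ratio of 1.07, and it was place 15 of 36 when the genes were ordered from the highest to the lowest difference. The probe of Ptprn lies in an area of the FTO-labelled array where repeated spots of low to middle signal had lost signal. Bright repeated spots in the same block of the array had not: 49 of them deviated from the median of their probe by a median of 0.06, between -0.07 and 0.21. The brightest probes of Ptpn2, Ptprg, Ptprc and Ptpn21 lie in such areas too. The 5 genes had a median difference of 0.10 and the other 31 members one of -0.02. Among normalizations the difference of Ptprn lay between 0.04 and 0.14, always above 0 and within the spot error. The spread of a difference between repeated spots at its brightness was 0.09, close to the difference itself.

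Ptprn2 (NM_011215) encodes phogrin, the second granule member, and had 3 probes. The brightest had a signal of 639 on the FTO-labelled array and 511 on the control-labelled array, the next 626 and 384, and the third 446 and 344. All of these spots were well above background. The third probe lies in an area of lost signal on the control-labelled array, and the effect of this was not tested. The differences were -0.02, 0.36 and 0.04, each with a spot error of 0.20. The probes of this gene thus differed among themselves by 0.39, and the middle one alone exceeded its error. By its brightest probe Ptprn2 was place 20 of 36, and its sign depended on the processing, between -0.10 and 0.002. The mean over the 3 probes was 0.13.

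In the order of brightness of the 55 probes, the probe of Ptprn was place 5, those of Ptprn2 were places 25, 28 and 32, and that of Ptpre was place 49. Brightness depends on the sequence of each probe as well as on the transcript, so these places describe spots and do not rank transcript levels.

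Ptpre (NM_011212) encodes receptor type phosphatase ε, which exists in a membrane and a cytosolic form made from the same gene. Its single probe had a signal of 22.6 on the FTO-labelled array and 23.9 on the control-labelled array. Both spots were well above background, and both lay close to the dimmest signals so flagged, 14.0 and 10.7. The difference was -0.15 with a spot error of 0.31, place 31 of 36. Probes printed 10 times gave a second measure of error at this brightness: the spread of a difference between single spots was 0.49, more than the size of the difference. Among normalizations the difference of Ptpre was below 0 throughout, from -0.03 after normexp background correction to -0.51 with scaling by the 75th percentile. The study's discussion calls Ptpre an upregulated gene, while the authors' own log2 values gave -0.14 for this probe. The study also reports quantitative PCR of genes upregulated on the array, and its primer list includes Ptpre. Its text gives no PCR value for Ptpre. Only probes named through RefSeq were examined here, so an unnamed probe of Ptpre would have been missed. Why the discussion and this probe differ was not tested. The RefSeq table lists 6 transcripts for the gene, and a single probe cannot separate its forms. Ptpra, the closest relative of Ptpre and an activator of Src kinases, had signals of 31748 and 23522 and a difference of -0.0010 with a spot error of 0.20. The probe of Ptpra lies in an area of lost signal on the control-labelled array.

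The other receptor classes stayed near 0 with few exceptions. In the LAR class, adhesion receptors of synapses and epithelia (R2A), Ptprd, Ptprf and Ptprs lay between -0.14 and -0.02. Ptprs had signals of 45311 and 34157, and Ptprf of 12863 and 10192. Among the receptors that bind their own kind on neighbouring cells (R2B), Ptprk, Ptprm, Ptprt and Ptpru lay between -0.03 and 0.20. Ptprm was the highest of these, with signals of 200.3 and 147.6 and a spot error of 0.21. In the class with carbonic anhydrase-like domains (R5), the difference was 0.14 for Ptprg and -0.10 for Ptprz1. These values are of the brightest probe of each gene, and all were within their spot error. The second probe of Ptprd, at 0.37 with an error of 0.21, and 1 dimmer probe of Ptprg, at 0.37 with an error of 0.20, exceeded theirs.

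The class of receptors with fibronectin repeats and 1 catalytic domain (R3) held wider differences. Ptprb, a phosphatase of the endothelium, had signals of 53.5 on the FTO-labelled array and 34.4 on the control-labelled array at its brighter probe, a difference of 0.53 with a spot error of 0.24. Its second probe had signals of 42.0 and 36.6 and a difference of 0.10 with a spot error of 0.26, so the higher signal was not shared by both probes beyond the error. Ptpro, known from podocytes of the kidney, had signals of 95.7 and 97.6 and a difference of -0.22 with a spot error of 0.21. Ptprj, a broadly expressed receptor that counters growth factor receptors, had 11929 and 8364 at its brightest probe and a difference of 0.09. Ptprh, known from the gut, had a signal of 15.7 on the control-labelled array and 18.4, not well above background, on the FTO-labelled array, and no fold is given for it.

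Ptprc, Ptpn7, Ptpn22 and Ptpn6, all known from blood cells, are described together here, a grouping that was not among the planned lists. Their differences lay below 0, those of Ptpn22 and Ptpn6 within the spot error, and the probes of Ptprc and Ptpn7 gave dim spots. In the whole family 17 of 36 members lay above 0, so the shared sign is not read as a trait of blood cell phosphatases. Ptprc, the leukocyte receptor CD45, had signals of 33.7 and 38.0 and a difference of -0.26 with a spot error of 0.25. Its probe lies in the area of lost signal on the FTO-labelled array, and whether that area set the difference was not tested. Ptpn7, a phosphatase of MAP kinases in lymphocytes, had 39.3 and 51.4 at its brighter probe and 18.6 and 19.9 at the other. The differences were -0.50 with a spot error of 0.24 and -0.14 with a spot error of 0.35. Ptpn22, a lymphocyte phosphatase linked to autoimmune diabetes, had 213.6 and 204.8 and a difference of -0.20 with a spot error of 0.21. Ptpn6, which is abundant in blood cells but not confined to them, gave a brighter spot, with 4319 and 3282 and a difference of -0.03.

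Ptpn7 belongs by structure to the class that acts on MAP kinases (R7), and its relatives lay on the other side of 0. Ptpn5, the neuronal phosphatase STEP, had signals of 879 and 615 and a difference of 0.15. Ptprr had 3896 and 2572 and a difference of 0.19. Both were within a spot error of 0.20.

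The phosphatases of insulin and cytokine signaling without a transmembrane part were Ptpn1, Ptpn2 and, in another class, Ptpn11. Ptpn11, which encodes SHP2, an activator of the Ras pathway downstream of receptor kinases, had the brightest probe of the family, with signals of 99477 and 65246. Its difference of 0.26 exceeded its spot error of 0.20 and lay between 0.18 and 0.30 among normalizations. The lowest of these, with scaling by the 75th percentile, was within the spot error. Ptpn2 had 3 probes of 2 accessions, with differences of 0.19, 0.21 and 0.29, each with a spot error of 0.20. These lay together above 0, the first within its error, the second at it and the third beyond it. Ptpn1, which encodes PTP1B, had 2332 and 1912 at its brighter probe and a difference of -0.10, and its other probe had -0.03. The paired enzymes Ptpn1 and Ptpn2 thus lay on opposite sides of 0, both within their spot error by the brightest probe.

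The remaining cytosolic phosphatases have protein interaction domains beside the catalytic one. Ptpn3 and Ptpn4, which carry FERM and PDZ domains, had differences of 0.14 and 0.16. Ptpn14 and Ptpn21, with a FERM domain, had -0.19 and -0.03. Ptpn13, a large scaffold with several PDZ domains, had signals of 2140 and 1415 at its brighter probe and a difference of 0.20 with a spot error of 0.20. Ptpn12 and Ptpn18 had -0.03 and 0.05, and Ptpn12 is known as a regulator of focal adhesions. Ptpn9, a phosphatase of secretory vesicles, had -0.09, and Ptpn23, which takes part in endosomal sorting, had -0.06. None of these exceeded its spot error.

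Ptpn20 (NM_008978), a little studied phosphatase known from testis, was the member with the highest difference. Its single probe had a signal of 29.4 on the FTO-labelled array and 14.0 on the control-labelled array, both well above background. The difference was 1.03 (spot error 0.36), a ratio of 2.05, just past the 2-fold limit. The spread of a difference between single spots of repeated probes at this brightness was 0.56. Of the 1702 named probes well above background on both arrays with a mean log2 signal between 4 and 5, as for Ptpn20, 4.05% differed by more than 2-fold. Cyclic loess gave 0.90, scaling by the 75th percentile 0.65 and normexp 0.40, each under 2-fold, and all were above 0.

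The genes with several probes give a check within each array. For 12 genes at least 2 probes were tested, and the range of their differences was 0.29 at the median, from 0.04 for Ptprz1 to 0.51 for Ptprd. The Ptprd probes had differences of -0.14 and 0.37, and the 3 Ptprg probes 0.14, -0.06 and 0.37. Ptprj had 4 probes, with differences of 0.09, -0.03, -0.39 and -0.17, and the probes of its 2 accessions overlapped. For no gene were the probes more than 1 apart on the log2 scale. By their brightest probe the 36 genes had differences with a median size of 0.14, beside 0.12 over all named genes.

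**Figure D3:**
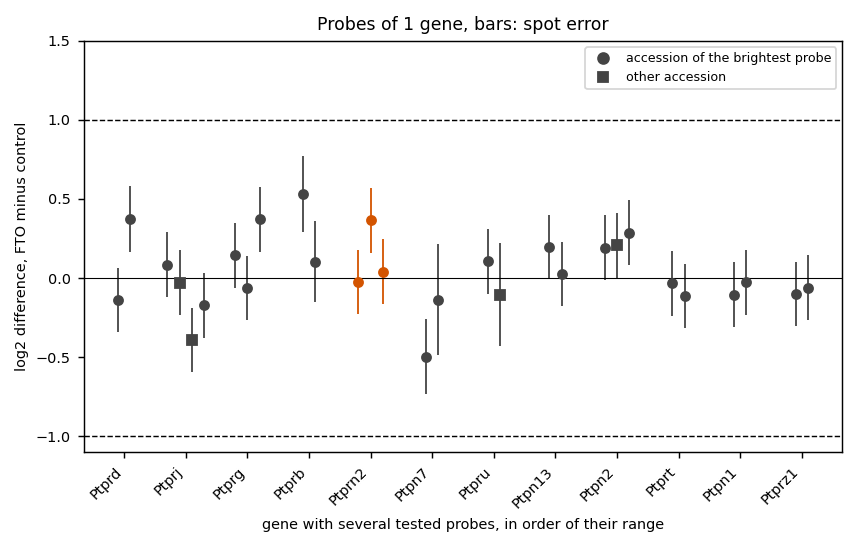
Difference (log2, FTO minus control) of each tested probe of the 12 phosphatase genes with several tested probes, ordered by the range of the probes from Ptprd (0.51) to Ptprz1 (0.04), with bars for the spot error and dashed lines at 2-fold. Circles and squares separate the accessions of a gene and orange marks Ptprn2. The probes of Ptpn2 lie together above 0, and those of Ptprd, Ptprg and Ptprn2 spread across 0.

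The size of the differences moved with brightness. Among the 18 members below the family's median brightness the median size of the difference was 0.17, and among the 18 above it was 0.10. Named genes below and above that brightness had 0.22 and 0.09. Across the 36 genes Spearman's rho between mean log2 signal and size of the difference was -0.59, and across all named genes it was -0.44. All points come from the same pair of arrays, so rho is a description. The 6 members beyond their spot error included the dim genes Ptpn20, Ptprb, Ptpn7, Ptprc and Ptpro, Ptpn11 being the exception.

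**Figure D4:**
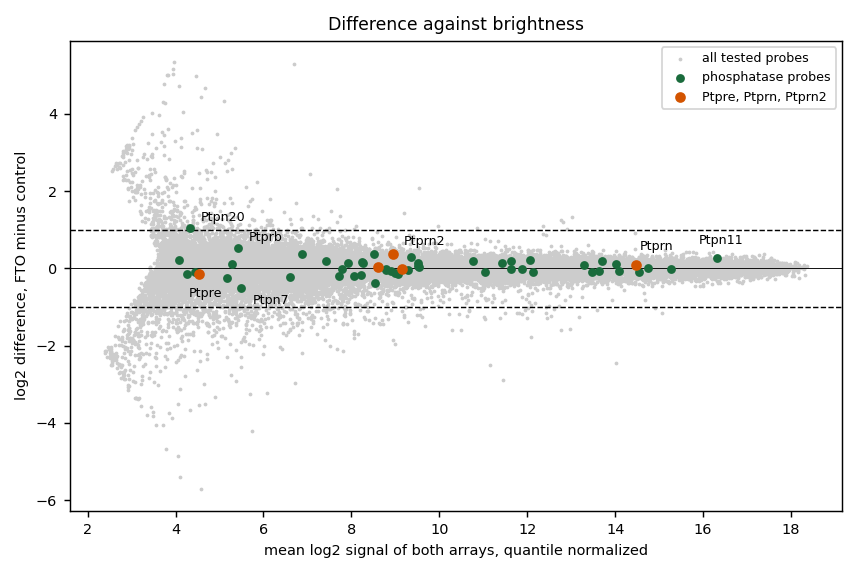
Difference (log2, FTO minus control) against mean log2 signal for all tested probes (grey), the 53 tested phosphatase probes (green) and those of Ptpre, Ptprn and Ptprn2 (orange), with dashed lines at 2-fold. A named gene with several probes is labelled at the probe with the largest difference. The grey cloud narrows as the signal rises, and the phosphatase probes lie inside it at each brightness.

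The signs of 29 of the 36 members were the same under quantile normalization, scaling by the 75th percentile, cyclic loess, normexp, a floor of 5 on the signal and the authors' own log2 values. The floor and the authors' values repeat the quantile normalization, so they are not separate checks of a sign. The 7 members whose sign turned were Ptpn3, Ptpn18, Ptpra, Ptprh, Ptprn2, Ptprs and Ptprt. Dim members moved most. Ptpn7 lay between -0.81 and -0.19, Ptprc between -0.60 and -0.04, and Ptprb between 0.21 and 0.53. The median of all named genes lay between -0.06 and 0.01 in these settings.

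**Figure D5:**
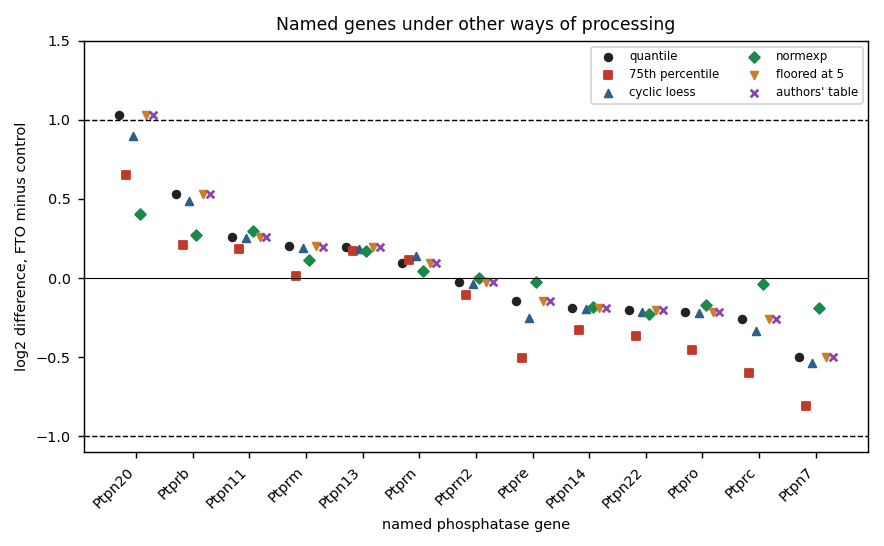
Difference (log2, FTO minus control) of 13 phosphatase genes under 6 ways of processing, with dashed lines at 2-fold. Ptpn20 passes 2-fold in 3 of them, at 1.03, and these 3 share quantile normalization of the same signals. The largest shifts are those of the dim genes Ptpn20, Ptpre, Ptprc and Ptpn7.

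Related genes were described from lists chosen by function. Of 26 other cysteine-based phosphatases, such as the Dusp enzymes, all were well above background on both arrays, none differed by more than 2-fold, and their median difference was -0.03. They ranged from -0.40 for Dusp8 to 0.21 for Dusp10. Of 25 substrates and partners of the phosphatases 1 differed by more than 2-fold, beside 3.21% of all named genes. By more than their spot error 5 were above and 5 below 0, beside 14.7% and 13.9% of all named genes. The gene past 2-fold was the kinase Src, with signals of 56.8 and 19.0 and a difference of 1.49 with a spot error of 0.27. Repeated spots of such brightness had a median spread of 0.34 on the FTO-labelled array and 0.35 on the control-labelled array. The list had a median of 0.08 and its lowest member was Il1rapl1, a partner of Ptprd, at -0.77 with a spot error of 0.37. Il1rapl1 had dim signals of 14.5 and 24.3, the first close to the dimmest signal well above background on the FTO-labelled array, 14.0. Insr and Jak2 were picked after their values were seen. Insr, the insulin receptor on which Ptpn1 and Ptpn2 act, had a difference of 0.01 and Jak2 one of -0.36. Of 15 islet autoantigens and granule cargo genes, such as Ins2 and Gad1, none differed by more than 2-fold, and they ranged from -0.24 for Ins2 to 0.30 for Gad1 with a median of -0.0050.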

How the data were processed

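Cy3-labelled RNA of each culture was hybridized to a one-color Agilent 4x44K mouse array. The authors deposited spot intensity values from Agilent Feature Extraction 11.0.1.1, with background subtracted and the spatial trend removed. The deposited log2 table, with 33870 probes, comes from quantile normalization by the authors in GeneSpring GX. Both arrays carry the same scan time.

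Control spots and outlier spots (148 and 141) were left out. No spot was saturated. Log2 spots were averaged per probe and normalized by quantiles (limma 3.58.1, R 4.3.3), then handled in Python 3.11.15. Probes were named through the RefSeq table of GRCm38.p6. The array design cites an older build, so no coordinates are given. A gene was tested if either array had a probe of it well above background, and called past 2-fold (1 on the log2 scale) by any tested probe. Its single value came from its brightest tested probe. Alternatives were scaling by the 75th percentile, cyclic loess, normexp with an offset of 50, a floor of 5, the deposited log2 values, other filters on dim probes and other ways to join the probes of a gene. Areas of lost signal are blocks of 76 rows and 17 columns in which at least 15% of repeated spots (10 per probe) lay over 0.5 below the median of their probe.

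Genes named in the text are Ptpre, Ptprn and Ptprn2, any past 2-fold, the 5 highest and 5 lowest well above background on both arrays, genes whose probes differ by more than 1, and the members of each class with the range of their differences. Values of further members are given to describe their class, outside this rule. Members and lists were chosen with earlier results of these data known. The number of arrays limits precision throughout.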

Additional observations from a re-analysis of the deposited data

How the results depend on the processing

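Without replicates no array could be left out. No paired analysis was possible because there was 1 array per condition. The number of phosphatase genes past 2-fold was 1, Ptpn20. It was 0 with scaling by the 75th percentile, 0 with cyclic loess and 0 with normexp, and 1 in the other 7 settings. The cause was not tested. Over all named genes those 3 settings gave 869, 640 and 62 genes past 2-fold, beside 594. The median of the family lay between -0.02 and 0.03 in all settings. Ptpre moved beyond its spot error with scaling by the 75th percentile, to -0.51, and no other setting did that to Ptpre, Ptprn or Ptprn2. Of 60 values of the other 10 named members under alternatives, 52 moved by less than the spot error and 8 by more, those of Ptpn20, Ptprb and Ptpn7 with scaling by the 75th percentile and with normexp, and those of Ptprc and Ptpro with scaling by the 75th percentile. These 8 kept their sign. Leaving out 8 blocks where repeated spots had lost signal, an alternative known from earlier results, left 30 members with a median of -0.02.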

Other observations

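Markers of other cell types give the setting in which dim members such as Ptprc and Ptprb were read. Of 5 T and B cell markers 4 were well above background on both arrays, with Cd3e at 3906 on the FTO-labelled array and 2388 on the control-labelled array, Lck at 2869 and 2583, and Cd79a at 28.4 and 49.7. All 4 myeloid markers were above background, from Tyrobp at 218.5 and 157.6 and Adgre1 at 167.3 and 170.2 up to Itgam at 1426 and 1248. Of 4 endothelial markers, Kdr (1241 and 991) and Pecam1 (295.6 and 260.0) were above background on both arrays, Cdh5 on the control-labelled array only and Tie1 on neither. Their part in the differences of Ptprc, Ptpn7 and Ptprb was not tested. Hormones of other islet cells were bright, Gcg at 257411 and 243558 and Ppy at 14003 and 10872. Of 4 acinar markers 3, of 3 duct markers 2, of 3 fibroblast markers 2 and of 2 delta cell markers 1 were above background on at least 1 array.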
